A study of Mus musculus with 12 samples.

Results

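Clusterin (Clu) was followed here in 12 single tendon cells, as 1 of the 55418 genes in the count table. It was chosen because it took more counts than any other gene in several cells of both genotypes, so its counts, levels and ranks are described without a test. The cells came from non-injured Achilles tendons of untreated mice on a C57BL/6 background, and 6 carried the genotype Tnmd-/- ScxGFP+ and 6 the genotype Tnmd WT ScxGFP+. Cells of both genotypes carried the ScxGFP reporter, which marks activity of the tendon transcription factor scleraxis, and were picked one by one for green fluorescence after collagenase digestion. The Tnmd knockout is constitutive, so every cell of those mice lacks tenomodulin, and the WT animals of the study as a whole included females with a single intact copy of this X-linked gene. The age of the donors of these cells and the animal behind each cell were not given in the sources used here, although the study's methods name a pair of tendons for this step. Each genotype was therefore taken as 1 sample, without replicates, and no test between genotypes was made.

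Clusterin, also called apolipoprotein J, is a secreted glycoprotein that acts as a chaperone outside the cell by binding partly unfolded proteins and keeping them in solution. Its precursor is folded in the endoplasmic reticulum, cut by a furin-type protease into an alpha and a beta chain, and released as a disulfide-linked dimer of the chains. It also binds lipids, blocks assembly of the membrane attack complex of complement, and is taken up by cells through endocytic receptors. In connective tissue it is made by fibroblasts and chondrocytes among other cells.

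The gene (ENSMUSG00000022037) lies on the plus strand of chromosome 14 of GRCm38, from 65968483 to 65981547, between the pseudogene Gm19222 and Gulo, which codes for an enzyme of vitamin C synthesis. The annotation lists 9 transcripts with 3437 exon bases in all, the same length as in the count table, and 0 of these bases are shared with exons of another gene. The main protein-coding transcript, Clu-201, has 9 exons and 1810 bases, and its coding sequence runs over 1347 bases and 448 codons before the stop. The first and last coding bases of Clu-201 from GENCODE M21 are shown because they bound the reading frame of this transcript, although the counts are of the whole gene and not of Clu-201 alone, with the start and the stop codon in capitals:

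Clu-201 coding bases 1 to 120: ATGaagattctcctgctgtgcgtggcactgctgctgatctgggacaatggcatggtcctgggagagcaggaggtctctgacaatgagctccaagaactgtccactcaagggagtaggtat

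Clu-201 coding bases 1228 to 1347: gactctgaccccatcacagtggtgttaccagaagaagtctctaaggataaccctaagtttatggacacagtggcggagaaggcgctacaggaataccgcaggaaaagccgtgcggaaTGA

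Depth differed between the cells. The Tnmd-/- cells held 892713 to 10333351 counts on genes and the WT cells 4516036 to 13613080, and Tnmd-/- cells 3 and 7 were the shallowest, with 1504775 and 892713 counts. In Tnmd-/- cell 3 the mitochondrial genome gave 51.8% of counts, against 1.75% to 7.30% in the other cells. Tnmd, the targeted gene, had 0 to 5 counts in the Tnmd-/- cells, 10178 in WT cell 14, 7 in WT cell 2 and 0 in the other WT cells. The reads of Tnmd thus set WT cell 14 apart but did not tell the other WT cells from the knockout. The study marks 3 cells of each genotype as less degraded, cells 9, 10 and 20 of the Tnmd-/- and cells 4, 5 and 10 of the WT, and the remaining 3 of each as more degraded.

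Clu was counted in all 12 cells. In the Tnmd-/- cells it had 764888 counts in cell 10, 736378 in cell 9, 155701 in cell 20, 69271 in cell 1, 905 in cell 7 and 305 in cell 3. Divided by the total of each cell and given per 1000000 counts (CPM), these were 74228, 71262, 23092, 13044, 1014 and 203 CPM in the same order. The Tnmd-/- cells thus fell into a pair of very high cells, a pair of intermediate cells and a pair, the shallow cells 3 and 7, in which Clu was low. In the WT cells Clu had 857646 counts in cell 10, 449645 in cell 4, 212648 in cell 1, 212266 in cell 5, 210741 in cell 2 and 20142 in cell 14. Levels were 63002 CPM in cell 10, 43671 in cell 2, 36048 in cell 4, 35493 in cell 1, 17660.1 in cell 5 and 4460.1 in cell 14. Of the WT cells cell 14 was thus far below the others, and the ranges of the genotypes overlapped.

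**Figure D1:**
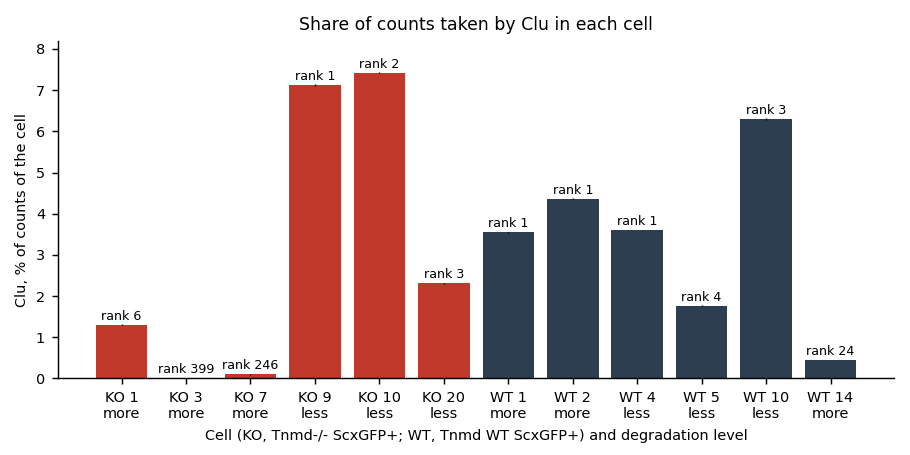
Share of the counts of each cell taken by Clu, as bars from 0 with exact 95% binomial intervals that are barely wider than the line, for 6 Tnmd-/- cells (KO, red) and 6 WT cells (dark), with the rank of Clu among all genes above each bar. The shares run from 0.0203% in Tnmd-/- cell 3 to 7.42% in Tnmd-/- cell 10.

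As a share of the library, Clu took 7.42% of the counts of Tnmd-/- cell 10 (exact binomial interval 7.41 to 7.44%) and 0.0203% of those of Tnmd-/- cell 3 (0.0181 to 0.0227%), a span of 366-fold. In descending order the cells were Tnmd-/- 10, Tnmd-/- 9, WT 10, WT 2, WT 4, WT 1, Tnmd-/- 20, WT 5, Tnmd-/- 1, WT 14, Tnmd-/- 7 and Tnmd-/- 3. The closest neighbours were WT cells 4 and 1, which differed 1.02-fold, and the widest gap among neighbours was 5.00-fold, between Tnmd-/- cells 7 and 3. No neighbouring intervals overlapped, but these intervals hold the error of counting alone, since reads amplified by PCR were not tagged by molecule. With 1 library for each cell, the error between repeat libraries of a cell could not be estimated.

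Wide spans were common in these data. Among the 213 genes with at least 10 counts in each of the 12 cells, the median gene had a highest level 154-fold above its lowest, and Clu exceeded 76.1% of these genes. The coefficient of variation of the CPM was 0.835 for Clu and 0.870 for the median gene, so Clu stood apart from other widely counted genes in neither measure.

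Clu held rank 1 by counts in 4 cells, Tnmd-/- cell 9 and WT cells 1, 2 and 4. It was at rank 2 in Tnmd-/- cell 10, at rank 3 in Tnmd-/- cell 20 and in WT cell 10, at rank 4 in WT cell 5 and at rank 6 in Tnmd-/- cell 1. Its ranks were 24 in WT cell 14, 246 in Tnmd-/- cell 7 and 399 in Tnmd-/- cell 3, among 3505, 4339 and 4384 genes with a count. Clu was thus within the 10 leading genes of 9 cells. In the cells it led, it exceeded the next gene 1.86-fold in Tnmd-/- cell 9, 1.27-fold in WT cell 2, 1.22-fold in WT cell 4 and 1.19-fold in WT cell 1. Just outside rank 1, Clu reached 0.969 of the counts of Dcn in Tnmd-/- cell 10 and 0.919 in Tnmd-/- cell 20.

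Besides Clu, 4 genes led a cell, and of these Dcn and Spp1 encode secreted matrix products. Dcn, which encodes the collagen-binding proteoglycan decorin, held rank 1 in 4 cells, Tnmd-/- cells 10 and 20 and WT cells 10 and 14. Spp1, the gene of the acidic matrix protein osteopontin, led in WT cell 5 with 6.75% of counts and stood at rank 2 or 3 in 5 further cells. Prg4, which encodes the lubricating proteoglycan lubricin, was among the 10 leading genes of 9 cells, at ranks 2 to 10 in these, and never led. The remaining cells were led by RNAs of other kinds. The mitochondrial ribosomal RNA mt-Rnr2 led with 3.92% of counts in Tnmd-/- cell 1 and 29.6% in Tnmd-/- cell 3, and the nuclear noncoding RNA Malat1 with 4.97% in Tnmd-/- cell 7. In these 3 cells Clu reached 0.332, 0.000686 and 0.0204 of the counts of the leading gene.

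**Figure D2:**
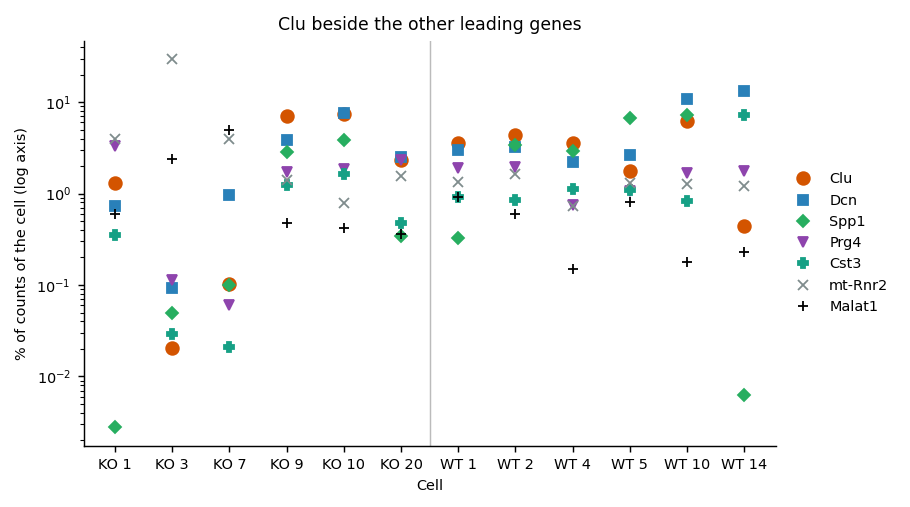
Share of the counts of each cell (percent, log axis) taken by Clu and by 6 other genes that held rank 1, 2 or 3 in a cell, for Tnmd-/- cells (KO, left) and WT cells (right). Clu is among the 10 leading genes in 9 cells, and at least 3 of the plotted genes lie above it in Tnmd-/- cells 3 and 7 and WT cell 14.

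Ranking by counts favors long mRNAs, since Smart-Seq2 reads cDNA along its whole length. With counts divided by gene length and scaled to 1000000 per cell (TPM), Clu led in 2 cells, Tnmd-/- cell 9 and WT cell 1. Its TPM level ran from 105 to 58394 with a median of 22447, beside medians of 25112 TPM for Spp1, 19515 for Cst3 (the protease inhibitor cystatin C), 13149 for Dcn and 10590 for Prg4. Per length Clu lay above Dcn in 8 of 12 cells, against 5 of 12 by counts, and above Spp1 in 5 of 12, against 9 of 12 by counts. The length used for Clu, 3437 bases, counts the exons of all 9 transcripts and exceeds the 1810 bases of Clu-201. The same counts over the length of Clu-201 would thus give a higher level. The level of Clu-201 alone is not known, since the counts were not split by transcript. The lengths used for Dcn, 5838 bases, and Spp1, 1648 bases, came from the same source and were not compared with their single transcripts. The order of Clu and these genes per length therefore depends on the lengths used.

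Between the genotypes, the direction for Clu depended on how the cells were weighted. Summed over the cells, Clu had 1727448 of 35088506 counts in the Tnmd-/- cells, or 49231 CPM (Poisson interval 49158 to 49305), and 1963088 of 53439236 counts in the WT cells, or 36735 CPM (36684 to 36786). The pooled log2 ratio of Tnmd-/- over WT was 0.42 (0.4195 to 0.4254), a 1.34-fold higher level in the Tnmd-/- sum. Cells 9 and 10 gave 86.9% of the Clu counts of the Tnmd-/- cells, and without cell 10 the ratio was 0.080 and without cell 9 it was 0.12. With equal weight for each cell the sign turned, to -0.13, and it was also negative when equal weights were combined with TMM factors (-0.41) or DESeq2 size factors (-0.51). With summed counts the same factors, tried after seeing the data, left it positive, at 0.16 and 0.15. The median share was 1.81% in the Tnmd-/- cells (0.0203 to 7.42%, 6 cells) against 3.58% in the WT cells (0.446 to 6.30%, 6 cells). Without the shallow Tnmd-/- cells 3 and 7, a setting chosen after seeing the data, the ratio was 0.52 by summed counts and 0.44 with equal weights. Among 9768 genes that reached a sum of 20 counts, 12.3% had a pooled ratio nearer to 0 than that of Clu. The sign of the difference in Clu between the genotypes was therefore not settled, and the spread of cells within a genotype, 366-fold in the Tnmd-/- and 14.1-fold in the WT, was wider than any of these ratios.

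The degradation level and the depth of a cell moved with its Clu level in the Tnmd-/- cells, but not clearly in the WT cells. In the Tnmd-/- cells marked as less degraded Clu took 2.31 to 7.42% of counts, and in those marked as more degraded 0.0203 to 1.30%, with no overlap. In the WT cells the ranges were 1.77 to 6.30% and 0.446 to 4.37%, and they overlapped, since WT cells 1 and 2, both marked as more degraded, had Clu at rank 1. The WT medians were 3.60% in the less and 3.55% in the more degraded cells. WT cell 5, less degraded and with 12019550 counts, had a lower share than the shallower WT cells 1 and 2. Within the less degraded cells the pooled log2 ratio of Tnmd-/- over WT was 0.60, and within the more degraded cells it was -1.66. The less degraded cells were also the deeper ones, with 6742665 counts or more against 5991316 or fewer, so degradation level and depth cannot be told apart. When every cell was thinned at random to 892713 counts, Clu held rank 1 in 4 cells, and its rank was 390 in Tnmd-/- cell 3 and 24 in WT cell 14. Thinning at random keeps the shares of the leading genes, so these ranks could hardly change and do not test the part of depth.

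The cells with the least Clu were not alike in their other counts. Tnmd-/- cell 3 had 51.8% mitochondrial counts, and taking those out of the total raised its Clu share only from 0.0203% to 0.0421%. Tnmd-/- cell 7 had 7.30% mitochondrial counts and the highest share of Malat1. WT cell 14 had 2.33% mitochondrial counts, as the cells with high Clu did, but with 1350 it held the fewest genes with at least 10 counts. The part of degradation, depth and mitochondrial content in the Clu level was not tested.

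**Figure D3:**
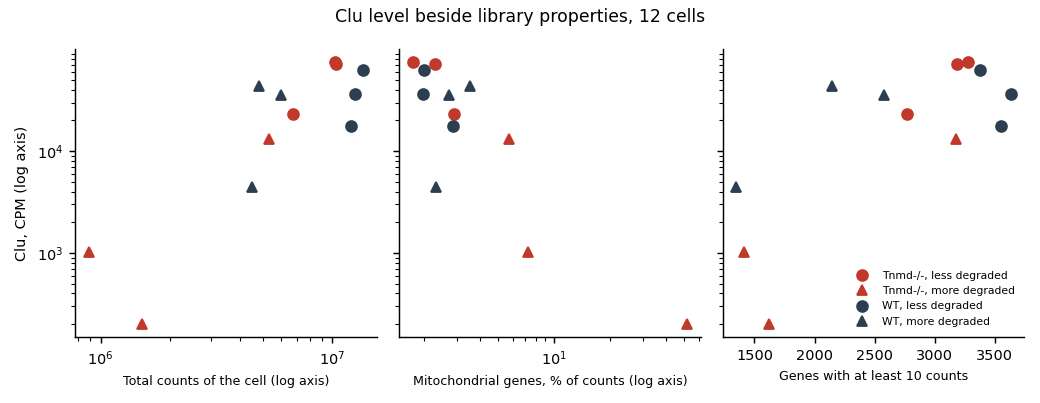
Level of Clu in each of 12 cells (CPM, log axis) against the total counts of the cell (log axis), the share of mitochondrial genes (percent, log axis) and the number of genes with at least 10 counts, with genotype by color and degradation level by marker shape. Tnmd-/- cells 3 and 7, with 203 and 1014 CPM of Clu, are the shallowest cells, while WT cell 14 has low Clu at 2.33% mitochondrial counts.

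A ratio of genes within a cell does not depend on the library total. Clu over Dcn was 1.86 in Tnmd-/- cell 9, 1.78 in cell 1, 0.969 in cell 10, 0.919 in cell 20, 0.218 in cell 3 and 0.106 in cell 7. In the WT cells it was 1.62 in cell 4, 1.35 in cell 2, 1.19 in cell 1, 0.667 in cell 5, 0.581 in cell 10 and 0.0334 in cell 14. Clu over Dcn thus lay between 0.581 and 1.86 in 9 cells of both genotypes, and lower in Tnmd-/- cells 3 and 7 and in WT cell 14. In cells 3 and 7 Clu was low beside Dcn at a level of 928 and 9600.0 CPM, whereas in WT cell 14 Dcn had its highest level of all cells, 133605 CPM or 13.4% of counts.

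WT cell 14 was the single cell with more than 10 counts of Tnmd. Beside 10178 counts of Tnmd it held the highest shares of Dcn, of Cst3 with 7.29% and of Chad, the gene of the matrix protein chondroadherin, with 2.17%, and the lowest Clu of the WT cells. Spp1 was likewise low in this cell, with 62.0 CPM against 3242 to 71904 CPM in the other WT cells. Scx, the gene whose activity the reporter marks, had 0 counts in WT cell 14, and its counts of 1355, 544 and 174 lay in WT cells 4, 10 and 1, where Clu took 3.60, 6.30 and 3.55% of counts. Scx also had 0 counts in Tnmd-/- cells 9 and 10 and WT cell 2, where Clu took 7.13, 7.42 and 4.37%. No Tnmd-/- cell had more than 3 counts of Scx. As a single cell, WT cell 14 gives no measure of how Clu and Tnmd relate.

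**Figure D4:**
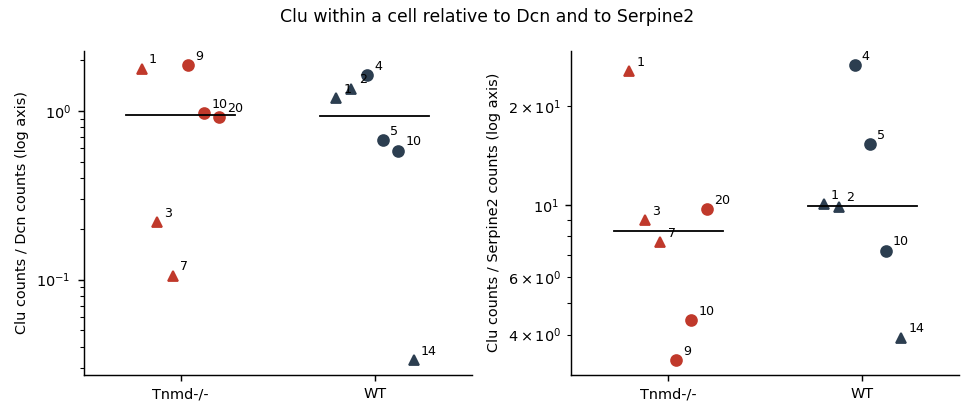
Counts of Clu divided by counts of Dcn (left) and of Serpine2 (right) within each cell, on log axes, with cell numbers, the median of a genotype as a line, circles for less and triangles for more degraded cells. WT cell 14 has the lowest ratio to Dcn, 0.0334, while the ratios to Serpine2 run from 3.34 to 26.7.

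The pattern of Clu over the cells was compared with that of the other 572 genes that had at least 10 counts in at least 10 cells, by the Spearman correlation of log2(CPM + 1) over 12 cells. This is a description of libraries that differ together in depth and degradation. The median correlation over the 572 genes was 0.205, and 17 genes lay above 0.7. The nearest gene was Serpine2, with 0.965. It encodes the secreted protease inhibitor nexin-1, which blocks thrombin and plasminogen activators. Serpine2 was at 21325 CPM in Tnmd-/- cell 9 and 16786 in cell 10, the 2 cells with the highest Clu, at 2383 in cell 20, 509 in cell 1, 132 in cell 7 and 22.6 in cell 3. In the WT cells it was at 8720 CPM in cell 10, 4434 in cell 2, 3538 in cell 1, 1349 in cell 4, 1154 in cell 5 and 1139 in cell 14. Within the Tnmd-/- cells Serpine2 followed nearly the order of Clu, and the correlation was 0.943 in each genotype of 6 cells, 0.886 in the less degraded and 0.943 in the more degraded cells. Without Tnmd-/- cells 3 and 7 it was 0.939. Clu exceeded Serpine2 in every cell, 3.34-fold in Tnmd-/- cell 9 to 26.7-fold in WT cell 4.

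The next genes were the glycolytic enzymes Eno1 with a correlation of 0.909, Gapdh with 0.874 and Aldoa with 0.846, and the histone gene H3f3b with 0.839. Eno1 ran from 0.665 to 2350 CPM, and Gapdh from 3.54 to 2673 CPM. These 4 genes have near-identical copies elsewhere in the genome, so their counts of uniquely mapped reads are uncertain. With the Pearson correlation only Serpine2 of these 5 genes remained among the nearest 5, with 0.941. At the other end were mt-Rnr1 with -0.776, Slc38a1, a glutamine transporter, with -0.734, and CT010467.1 with -0.671. Within the 6 WT cells these correlations were only -0.200, -0.257 and -0.257, and within the 6 Tnmd-/- cells they were -1, -0.829 and -0.771. The level of mt-Rnr1 was lowest, 2170 CPM, in Tnmd-/- cell 10, which had the most Clu, and highest, 140062 CPM, in Tnmd-/- cell 3, which had the least. Among the other genes that led a cell, Spp1 had a correlation with Clu of 0.713, Dcn of 0.601, Malat1 of -0.490 and mt-Rnr2 of -0.552. Without Tnmd-/- cells 3 and 7 these were 0.600, 0.333, -0.127 and -0.224.

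**Figure D5:**
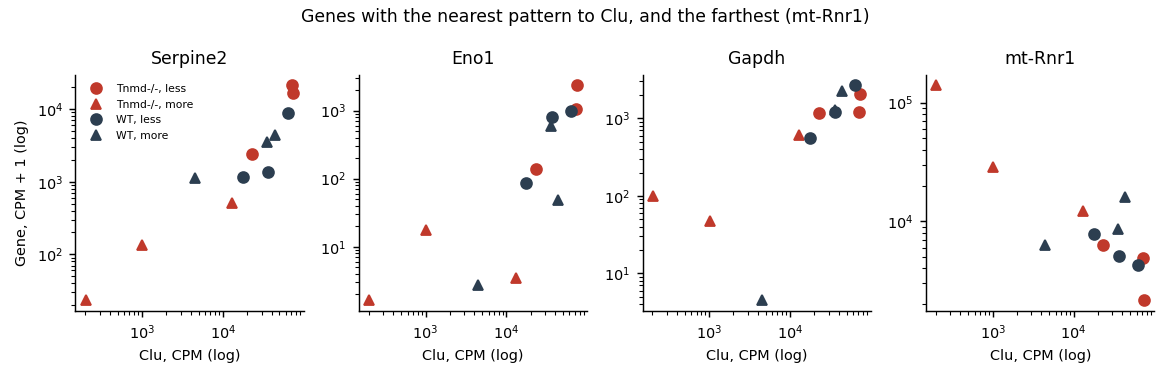
Level of Serpine2, Eno1, Gapdh and mt-Rnr1 (CPM + 1, log axes) against that of Clu (CPM) in 12 cells, with genotype by color and degradation level by marker shape. Serpine2 rises with Clu over the whole range (Spearman 0.965), and mt-Rnr1 falls (-0.776).

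Genes that act with clusterin were described from 8 lists of 96 genes in all, by their pooled log2 ratio of Tnmd-/- over WT with 1 CPM added. Of the 9768 genes with at least 20 counts, 35.5% were past 2-fold higher in the Tnmd-/- cells and 34.9% past 2-fold lower, with a median of 0.06, so such ratios were common among all genes. Of the listed genes 60 had at least 20 counts, 13 of them past 2-fold higher and 20 past 2-fold lower. The counts of listed genes are given for the level of each member in each cell.

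Among 7 clusterin receptors, 5 had at least 20 counts, 1 past 2-fold higher and 3 past 2-fold lower, with a median of -2.14. Leaving out WT cell 4 moved it to -0.28, and leaving out Tnmd-/- cell 1 to -3.92. Only Lrp1, a large endocytic receptor, was widely seen, with at least 10 counts in 10 of 12 cells and 163 CPM in both sums. Lrp8, which also binds reelin, had 841 counts in WT cell 1 and 2475 in WT cell 10. Lrp2, or megalin, was at 10 or more counts in 1 cell only, WT cell 2 with 188, and Plxna4, a semaphorin coreceptor, in Tnmd-/- cell 1 with 75. The cells with the highest Clu, Tnmd-/- cells 9 and 10, thus held reads of Lrp1 and at most 1 count of Lrp8, Lrp2 or Plxna4.

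Complement genes, whose final complex clusterin blocks, were uneven. Of 7 terminal components only C7 had at least 20 counts, with 382 in Tnmd-/- cell 1. Of 17 early components and regulators 7 had at least 20 counts, 4 past 2-fold higher and 1 past 2-fold lower, with a median of 1.18 that was 0.42 without Tnmd-/- cell 1 and 2.69 without WT cell 4. Serping1, the inhibitor of the first component, had at least 10 counts in 10 cells. C3, the central component, had 137 to 6579 counts in 5 of 6 Tnmd-/- cells and reached 10 counts in 1 WT cell, cell 4 with 1422.

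Other chaperones outside the cell and apolipoproteins were seen in fewer cells or at lower levels than Clu. Of 10 such chaperones 3 had at least 20 counts, 1 past 2-fold higher and 2 past 2-fold lower, and their highest level was 3487 CPM for Sparc, a collagen-binding protein, in Tnmd-/- cell 1, where Clu was at 13044 CPM. Serpina3n, a secreted protease inhibitor, had at least 10 counts in 6 cells, with its highest level of 1384 CPM in Tnmd-/- cell 20. Of 12 apolipoproteins 3 had at least 20 counts, 0 past 2-fold higher and 1 past 2-fold lower. Apoe, a carrier of lipids, had 11400 counts in WT cell 14, 1200 in Tnmd-/- cell 10 and 235 in WT cell 2, and 6 or fewer in every other cell. Apod, a small lipid carrier, had at least 10 counts in 6 cells, up to 703 CPM in WT cell 14. That cell, the lowest of the WT in Clu, was thus the highest of all in both Apoe and Apod, and held Apoe at 2524 CPM and Sparc at 2242 CPM beside Clu at 4460.1 CPM.

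The proteases and folding enzymes of the secretory pathway, through which Clu passes, were better covered. Of 15 genes 14 had at least 20 counts, 4 past 2-fold higher and 2 past 2-fold lower, with a median of 0.47 that was 0.053 without Tnmd-/- cell 1 and 0.74 without WT cell 1. The chaperones and lectins Hspa5, Hsp90b1, Canx and Calr and the disulfide isomerase Pdia3 had at least 10 counts in all 12 cells. Hspa5, the main chaperone of the endoplasmic reticulum, ran from 49.3 CPM in Tnmd-/- cell 7 to 6822 CPM in WT cell 2, and summed to 2324 CPM over Tnmd-/- cells and 1535 CPM over WT cells. Furin summed to 9 counts over Tnmd-/- cells and 80 over WT cells, and reached 10 counts in 4 WT cells. The related protease genes Pcsk5, Pcsk6 and Pcsk7 reached 10 counts in 2, 4 and 1 cells.

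Heat shock factors and factors of the AP-1 group, which are known to act on the Clu promoter, each reached 10 counts in 7 or fewer cells. Of 12 genes 11 had at least 20 counts, 2 past 2-fold higher and 4 past 2-fold lower, with a median of -0.27 that was 0.006143 with WT cell 1 left out and -3.28 with Tnmd-/- cell 9 left out. Hsf1, the main heat shock factor, reached 10 counts only in WT cell 10, with 220. Hsf2 reached 10 counts in 4 cells, with 3344 in WT cell 5, and Fosl1 in 7 cells. Fos had 4647 counts in WT cell 1, 4012 in Tnmd-/- cell 9, 2843 in WT cell 14 and 63 in Tnmd-/- cell 7. Atf3 and Egr1, an early response factor on the same list, each had at least 10 counts in 6 cells. Egr1 reached 4028 CPM in Tnmd-/- cell 7, where Clu was at 1014 CPM. Cells with high Clu thus did and did not hold reads of these factors, since Tnmd-/- cell 10, with the most Clu, had 5736 counts of Atf3 but 0 of Fos and 1 of Egr1.

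Of the 18 genes listed as abundant in tendon matrix, all had at least 20 counts, 0 were past 2-fold higher and 9 past 2-fold lower in the Tnmd-/- cells, with a median of -1.05. Clu, at 0.42 by summed counts, was on the other side of 0, though not with equal weights for cells. By counts Clu lay above Fmod, Lum, Bgn, Prelp, Fn1 and Sparc in each of the 12 cells, and above Comp and Chad in 10. Col1a1, which encodes the main collagen chain of tendon, reached 10 counts in 5 cells only, with a highest level of 2221 CPM in Tnmd-/- cell 7.

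Markers of tendon fibroblasts and of other cell types were checked in the same cells. The tendon fibroblast list of 9 genes summed to 1684 to 87463 CPM among Tnmd-/- cells and 30395 to 176923 CPM among WT cells. Cartilage markers (8 genes) summed to 0 to 1330 CPM among Tnmd-/- cells and 1.68 to 253 CPM among WT cells, with Col2a1, Matn3, Col9a1 and Cnmd at 0 in both. Acan and Sox9 made up the highest sum, in Tnmd-/- cell 9. Tnmd-/- cell 10 also held cartilage markers, with Acan at 1042 CPM, Hapln1 at 187 CPM and Sox9 at 41.2 CPM. These Tnmd-/- cells, 9 and 10, were also the cells with the highest Clu. In WT cell 10, the next in Clu, Acan was at 26.0 CPM and Hapln1 at 76.5 CPM. WT cells 2 and 1 had less Clu than WT cell 10, but Acan was at 234 CPM in cell 2 and Sox9 at 253 CPM in cell 1. Tnmd-/- cell 20 and WT cell 4, where Clu took 2.31 and 3.60% of counts, had Sox9 at 0 and Acan at 0 and 1.60 CPM. Glial markers (5 genes) reached 40.5 CPM among Tnmd-/- cells and 173 CPM among WT cells, with Sox10 at 0. Endothelial markers (7 genes) reached 180 CPM in Tnmd-/- cell 10, from Flt1 alone, and 0.367 CPM among WT cells, with Cdh5, Emcn and Tie1 at 0. Mural markers (6 genes) reached 191 and 668 CPM, with Rgs5, Acta2 and Myh11 at 0. Immune markers (6 genes) reached 0.871 and 0 CPM, and skeletal muscle markers (5 genes) 14.6 and 0.207 CPM. Red blood cell markers (5 genes) were at 0. Synovial lining markers (4 genes) reached 33496 and 19541 CPM, most of it Prg4, with Clic5 at 0. The part of such cells in the Clu level was not tested.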

How the data were processed

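Single-cell RNA sequencing by Smart-Seq2 was analysed for 12 cells. The authors trimmed reads with BBDuk, kept reads that mapped only to mouse by BioBloom Tools, aligned them with STAR 2.5.1b to GRCm38 and counted uniquely mapped exonic reads with featureCounts of Subread 2.0.0. The deposited values are raw counts per gene and cell, without normalization or molecular identifiers, and the strand of counting is not given in the sources used here. Per the file headers the gene length stands beside the counts, in bases.

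Genotypes were taken from the labels, and degradation levels from the annotation drawn in the study. CPM is counts over the total of a cell or genotype, times 1000000. Intervals are exact binomial or Poisson intervals at 95%. One count was worth 0.0735 to 1.12 CPM. Genes were named by rule, being Clu, Tnmd, Scx, genes at ranks 1 to 3 in a cell, the 5 nearest and 3 farthest by Spearman correlation, and members of the lists, some of which are counted in their lists but not reported here by name. The members and lists were chosen with earlier results of these data known. Apart from that rule, Col1a1, Acan and the members singled out by cell were chosen after their values were seen.

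Alternatives were equal weights for cells, mean log2(CPM + 1), edgeR 4.0.16 TMM factors and DESeq2 1.42.0 size factors (both for scaling only), totals without the 37 mitochondrial genes, the 50 top genes or Clu, TPM, thinning to 892713 counts, each degradation level, each cell left out, a minimum of 100 counts or of 1, and 5 CPM added. Python 3.11.15, numpy 2.4.6, pandas 2.3.3, scipy 1.17.1 and R 4.3.3 were used. Gene coordinates and coding sequence came from GENCODE M21.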

Additional observations from a re-analysis of the deposited data

Results flagged for a closer look

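Among 18 sets of 6 cells, 3 had a highest cell that stood apart from the rest by Dixon's criterion. Chance meets it in about 1 in 20 independent sets of normal values. These shares and ratios need not be normal and the sets share cells, so that rate is no measure for them. The ratio of Clu to Serpine2 counts was 25.6 in Tnmd-/- cell 1, against 9.69 in the next of the Tnmd-/- cells, while the WT cells reached 26.7. The mitochondrial share of counts was 51.8% in Tnmd-/- cell 3, against 7.30% in the next cell. The leading gene of the same cell, mt-Rnr2, took 29.6% of its counts, against 7.66% for the leading gene of the next. As mt-Rnr2 is a mitochondrial gene, this repeats in part the result for the mitochondrial share. Clu itself had no cell that stood apart in this way, on the share or on the log2 scale.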

How the results depend on the processing

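The pooled log2 ratio of Clu, 0.42, turned its sign when each cell had the same weight (-0.13), for mean log2(CPM + 1) over cells (-1.62), with the same weights and DESeq2 size factors (-0.51) or TMM factors (-0.41), for TPM averaged over cells (-0.11) and in the more degraded cells (-1.66). It was 0.46 without mitochondrial genes, 0.39 without the 50 top genes and 0.44 without Clu in the total, 0.60 in the less degraded cells, and 0.080 to 0.83 with a cell left out. Counts summed over TMM-scaled libraries gave 0.16 and over size factors 0.15, both tried after seeing the data. Without Tnmd-/- cells 3 and 7 it was 0.52, or 0.44 with equal weights. With equal weights the median of all genes was -0.037 by library totals, -0.20 with TMM factors and 0.16 with size factors. Clu led by counts in 4 cells, in 2 per length, and in 3 to 4 with a cell left out. The median share was 7.13% in the less degraded Tnmd-/- cells, against 1.81% in all, and with a cell left out it was 1.30 to 2.31% in the Tnmd-/- and 3.55 to 3.60% in the WT cells. Of the 5 nearest genes, 1 remained with either Pearson setting, 3 when genes seen in at least 6 cells were compared, and 3 to 5 with a cell left out. Serpine2 was the nearest gene in these settings, except without WT cell 2, where it was second. The numbers of listed genes past 2-fold were 10 to 14 higher and 18 to 24 lower with a cell left out, and the list medians were -3.92 to -0.28 for receptors, 0.42 to 2.69 for early complement and its regulators, 0.053 to 0.74 for convertases and folding enzymes and -3.28 to 0.006143 for heat shock and AP-1 factors. With 5 CPM added the first 2 medians were -0.76 and 0.33. The median of the tendon matrix list was -1.23 to -0.76 with a cell left out. No paired analysis was possible because the result comes from no test, and cell numbers only name the picked cells. Clu had 305 counts or more in each cell, so its counting error was small. Its level was lowest in the shallow Tnmd-/- cells 3 and 7, and the part of depth in that level was not tested. Low genes of the lists are limited in the shallow cells, where 3 counts were worth up to 3.36 CPM.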
